A study of Mus musculus with 12 samples.

Results

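Small leucine-rich proteoglycans (SLRPs) were followed here as 10 named genes, *Dcn*, *Bgn*, *Aspn*, *Fmod*, *Lum*, *Prelp*, *Kera*, *Omd*, *Optc* and *Ogn*, out of the 54146 genes counted in retinas of photoreceptor *Otx2* cKO mice. They were found by gene name, through the Ensembl identifiers of the counts, and the family was picked with earlier results of these data known. All 10 were found, and 9 of them had enough counts to be tested. *Kera* did not.

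Counts came from whole retinas of 12 mice, with 1 library for each mouse. How many retinas of a mouse went into a library is not given in the sources used here. The 3 control mice were killed at P30 (mice 1 to 3, labelled control, 0 d), and their Cre and flox genotype is not given in the sources used here. The cKO mice carried *Crx-CreERT2* and *Otx2* flox/flox, received a single tamoxifen injection at P30, and were killed in groups of 3 at P32 (mice 4 to 6, 2 d after the injection), P34 (mice 7 to 9, 4 d) and P38 (mice 10 to 12, 8 d). The Cre is driven by a *Crx* promoter transgene, so deletion was aimed at photoreceptors, and the tissue also held RNA of the RPE. The control and cKO mice differed at once in age, in tamoxifen and in the deletion, and possibly in genotype, and these cannot be told apart. All 3 P30 mice had female *Xist* counts, as had mice 5, 6, 9 and 12, so sex also differed in part between the groups.

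SLRPs are secreted matrix proteins built from leucine-rich repeats, and many carry chondroitin, dermatan or keratan sulfate chains. They bind collagen fibrils, control fibril width and spacing, and hold or release growth factors of the TGF-β and BMP families. In the eye they are known from the cornea and sclera and from the vitreous gel, into which the ciliary epithelium secretes opticin, the product of *Optc*.

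Libraries held 29701483 to 60145034 counts on genes, so 3 counts were worth 0.0473 to 0.102 CPM (each gene's counts scaled to library size, after TMM normalization in edgeR). Counts of *Otx2*, the targeted gene, were summed over all exons, deleted or not, and gave 293 to 328 CPM in P30 mice and 307 to 377 CPM in cKO mice. These sums cannot show the deletion. The paper checked it by reads on the deleted exon, which were fewer relative to a neighbouring exon at each cKO age. The 9 rod and cone markers used summed to 25288 to 44065 CPM and Müller glia markers to 3922 to 4647 CPM in the 12 libraries. Lens markers summed to 307 to 845 CPM in mice 2, 6, 7, 8 and 9 and to 5748 to 51029 CPM in the other 7, so the libraries fell apart in how much lens RNA they held, with all 3 P34 mice on the low side.

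In P30 control retinas the SLRP genes differed widely in level. Per kb of exon, *Optc* was highest at 34.1 ± 5.0 CPM per kb (mean ± SD, n = 3, as for the following levels). *Prelp* (13.9 ± 1.1), *Ogn* (11.5 ± 5.3) and *Fmod* (9.44 ± 0.64) came next, with neighbours in this order overlapping between mice. *Dcn* (2.55 ± 1.96), *Bgn* (1.36 ± 0.39), *Lum* (0.999 ± 0.774) and *Aspn* (0.797 ± 0.097) formed a lower group that also overlapped from gene to gene. *Omd* followed at 0.169 ± 0.021 CPM per kb. *Kera*, keratocan of the corneal stroma, had at most 4 counts in any library, and at most 1 in a P30 library. These levels depend on the length chosen for *Bgn* and *Optc*, which reached 3.10 and 46.6 CPM per kb when the longest transcript replaced the union of exons.

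**Figure D1:**
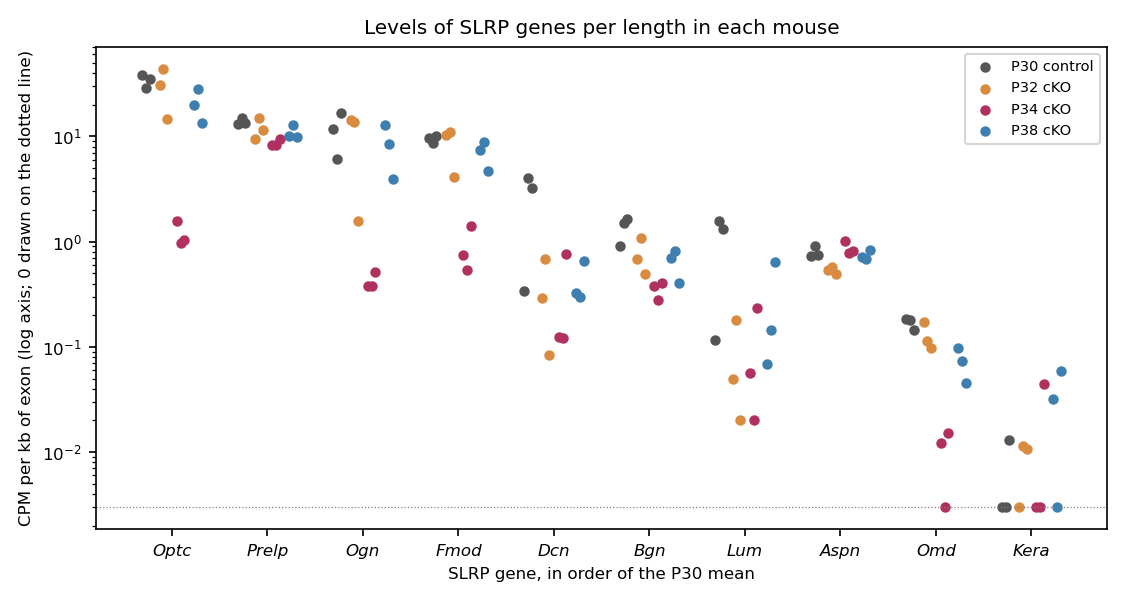
Level of each SLRP gene in each mouse, in CPM per kb of exon on a log axis, with genes in the order of their P30 mean and 1 point per mouse. The P34 points (mice 7 to 9) of *Optc*, *Ogn*, *Fmod* and *Omd* lie apart from those of the other ages, while *Prelp* and *Aspn* stay in a narrow band.

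At P34, 4 d after tamoxifen, transcripts of *Optc*, *Ogn*, *Fmod*, *Omd* and *Bgn* were lower than in P30 controls. *Optc* fell 28.7-fold, *Ogn* 27.3-fold, *Fmod* 10.7-fold and *Bgn* 3.85-fold, and *Omd* was at least 3.74-fold lower. These 5 of the 9 tested SLRP genes passed the edgeR quasi-likelihood test, fitted over all 12 mice, at an adjusted p (Benjamini-Hochberg) up to 0.05 and an absolute log2 fold change from 0.5 upward, and none passed in the other direction. Over all 18628 genes tested, 0.66% were called lower at P34. *Omd* reached the count needed for testing only through P30 and P32 libraries, so it could be tested only because those ages were high. Without it, 4 of 8 were called. Whether fewer cells or less RNA per cell lay behind a lower level cannot be told from bulk RNA.

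*Optc* encodes opticin, which binds the collagen fibrils of the vitreous. It had 99.0, 73.8 and 90.6 CPM in P30 mice 1, 2 and 3, then 79.3, 113 and 37.7 CPM in P32 mice 4, 5 and 6. In P34 mice 7, 8 and 9 it had 4.06, 2.47 and 2.64 CPM, and in P38 mice 10, 11 and 12 it had 51.6, 72.6 and 34.7 CPM. All 3 P34 mice lay below every other mouse, and mice 6 and 12 were the lowest of the rest. The log2 fold change at P34 was -4.84 (SE 0.42, adjusted p = 0.000423), against -0.20 (SE 0.35, adjusted p = 0.848) at P32 and -0.73 (SE 0.35, adjusted p = 0.847) at P38 in the same edgeR fit.

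*Ogn* encodes osteoglycin, a further class III member. Its P30 levels were 30.0, 15.8 and 42.9 CPM in mice 1, 2 and 3, and its P32 levels 36.5, 35.3 and 4.07 CPM in mice 4, 5 and 6. It stood at 0.966, 0.980 and 1.32 CPM in P34 mice 7, 8 and 9, and at 33.1, 21.9 and 10.1 CPM in P38 mice 10, 11 and 12. P32 mouse 6 was thus the closest of all others to the P34 mice, and mouse 12 the lowest at P38. The log2 fold change at P34 was -4.77 (SE 0.79, edgeR adjusted p = 0.0171). With P30 mouse 3 or P34 mouse 7, 8 or 9 left out, the call on *Ogn* was lost (edgeR adjusted p up to 0.130) while the log2 fold change stayed between -5.07 and -4.41.

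*Fmod* encodes fibromodulin, a keratan sulfate proteoglycan that binds collagen I fibrils. It varied little among P30 mice 1, 2 and 3, at 31.7, 28.9 and 33.0 CPM. P32 mice 4, 5 and 6 had 33.96, 36.2 and 13.7 CPM, P34 mice 7, 8 and 9 had 2.46, 1.76 and 4.67 CPM, and P38 mice 10, 11 and 12 had 24.3, 29.2 and 15.5 CPM. Mice 6 and 12 again lay between the P34 mice and the rest. The log2 fold change at P34 was -3.41 (SE 0.42, edgeR adjusted p = 0.00270). The calls on *Optc* and *Fmod* at P34 versus P30 held with each mouse left out in turn (edgeR adjusted p up to 0.00784 and 0.0293).

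*Omd*, osteomodulin, a keratan sulfate proteoglycan known from bone, was near the limit of these libraries. P30 mice 1, 2 and 3 gave 26, 20 and 11 counts, and P32 mice 4, 5 and 6 gave 13, 10 and 9. P34 mice 7, 8 and 9 had 1, 0 and 1 counts, and P38 mice 10, 11 and 12 had 9, 7 and 3. The P34 mice were below all others. With 3 counts in each P34 library as the floor, the P30 mean of 0.380 CPM was at least 3.74-fold higher (edgeR adjusted p = 0.00898), and the floor covers counting error only. The call was lost without P34 mouse 7 or 8 (edgeR adjusted p up to 0.0554).

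**Figure D2:**
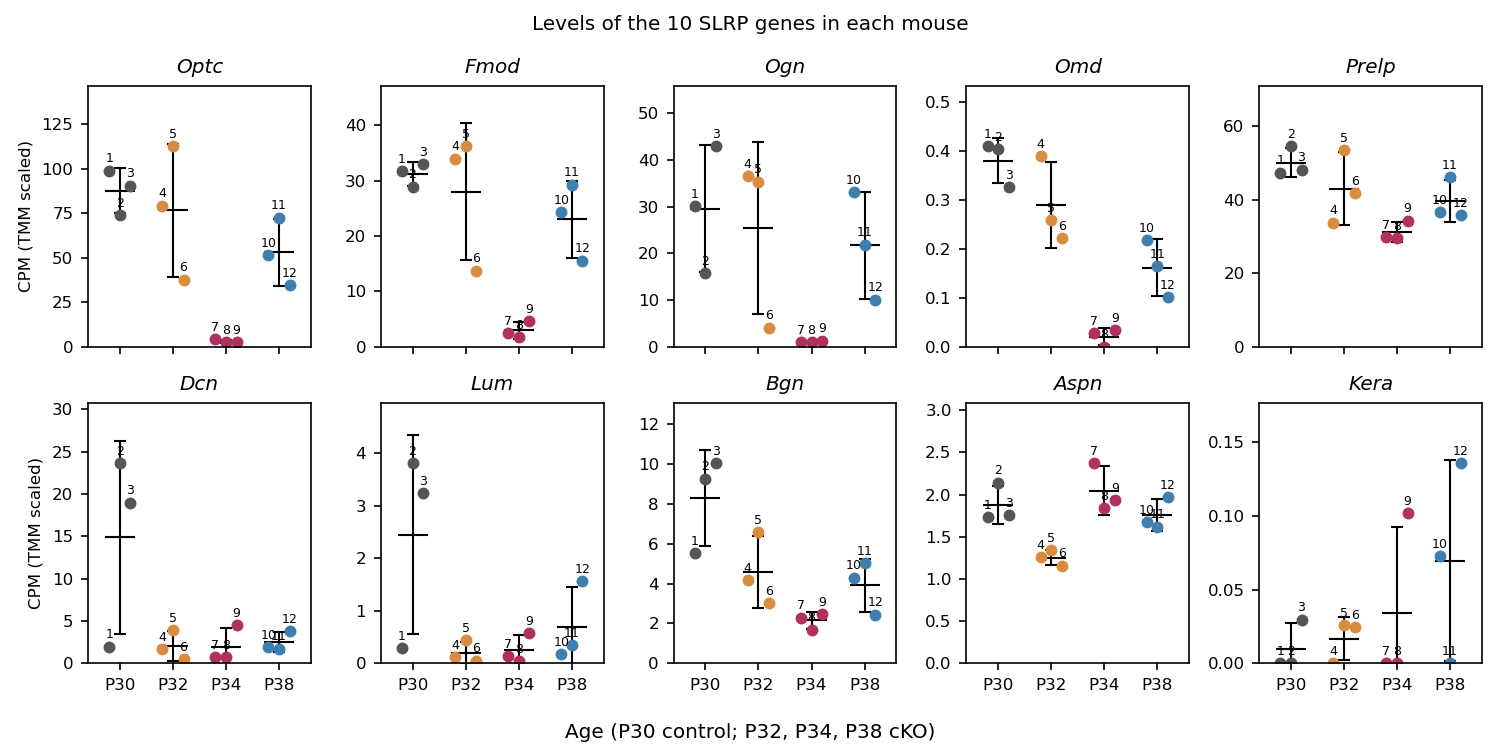
Level of each of the 10 SLRP genes in CPM (linear axes from 0, one scale per gene) by age, with 1 numbered point per mouse and the mean ± SD of 3 mice in black. The P34 mice are lowest for *Optc*, *Fmod*, *Ogn* and *Omd*, with mice 6 and 12 next for the first 3 of these, whereas *Dcn* and *Lum* stand out in P30 mice 2 and 3 alone.

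The region before the start of *Optc*, *Fmod* and *Ogn*, the 3 genes with the best counted falls, was read from RefSeq promoters (GRCm38.p6), along with that of *Prelp*, the gene next to *Optc*. Each line gives the 250 bases before the start, 5′ to 3′ on the gene's strand, at chr1:133908000-133908249 (minus) for *Optc*, chr1:134037004-134037253 (plus) for *Fmod*, chr13:49607765-49608014 (plus) for *Ogn* and chr1:133921402-133921651 (minus) for *Prelp*. Capitals mark matches on either strand to 5 short motifs. These were TAATCC, the core that OTX2 and CRX bind, TATAAA of the classical core promoter, CCAAT, a site of NF-Y, GGGCGG, a site of Sp1, and TGANTCA, a site of AP-1.
Optc: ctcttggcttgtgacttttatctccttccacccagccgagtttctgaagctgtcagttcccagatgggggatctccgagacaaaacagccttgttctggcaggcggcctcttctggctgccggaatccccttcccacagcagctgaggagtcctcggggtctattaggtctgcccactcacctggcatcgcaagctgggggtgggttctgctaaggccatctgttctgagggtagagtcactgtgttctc
Fmod: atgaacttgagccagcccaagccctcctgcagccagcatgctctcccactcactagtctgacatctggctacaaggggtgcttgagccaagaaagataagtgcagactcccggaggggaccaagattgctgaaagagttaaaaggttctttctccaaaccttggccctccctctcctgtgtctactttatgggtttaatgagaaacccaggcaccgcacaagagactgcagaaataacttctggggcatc
Ogn: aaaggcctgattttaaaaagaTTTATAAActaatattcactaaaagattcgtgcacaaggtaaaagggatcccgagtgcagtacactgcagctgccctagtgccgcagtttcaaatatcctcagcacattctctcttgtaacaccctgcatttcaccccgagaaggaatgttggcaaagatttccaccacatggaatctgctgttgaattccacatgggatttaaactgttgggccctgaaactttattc
Prelp: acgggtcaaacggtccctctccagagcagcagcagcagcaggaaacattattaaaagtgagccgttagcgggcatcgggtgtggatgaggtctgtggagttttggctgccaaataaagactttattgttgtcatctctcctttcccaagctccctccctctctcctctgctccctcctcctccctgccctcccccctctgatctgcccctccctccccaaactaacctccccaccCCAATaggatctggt
The *Optc* and *Fmod* windows held no match to any of the 5 motifs. *Ogn* held TATAAA and its reverse complement, which overlap, at 227 and 229 bases before the start, and *Prelp* held CCAAT at 15 bases. Among the 8 SLRP genes with a RefSeq window (*Dcn* and *Lum* were not matched), TAATCC was found in 0, TATAAA in 2, CCAAT in 3, GGGCGG in 1 and TGANTCA in 0. Of all 32851 windows of that length, 6.25% held TAATCC, 12.4% TATAAA, 33.8% CCAAT, 32.7% GGGCGG and 6.75% TGANTCA. A missing match says only that these letters are not in these windows.

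*Bgn*, *Dcn* and *Aspn* are the class I genes. *Bgn*, biglycan, had 5.54, 9.25 and 10.0 CPM in P30 mice 1, 2 and 3, and 4.17, 6.56 and 3.03 CPM in P32 mice 4, 5 and 6. It had 2.29, 1.69 and 2.47 CPM in P34 mice 7, 8 and 9 and 4.29, 5.02 and 2.44 CPM in P38 mice 10, 11 and 12. The P34 and P38 mice all lay below the P30 mice, and P38 mouse 12 lay within the P34 range. The log2 fold change at P34 was -1.94 (SE 0.35, edgeR adjusted p = 0.0279), and with sex as a covariate the adjusted p was 0.0575. It also lost the call without P30 mouse 2 or 3, any P34 mouse, or P38 mouse 10 (edgeR adjusted p up to 0.163).

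*Dcn*, decorin, which binds collagen I fibrils and TGF-β, split the controls. It had 1.99 CPM in P30 mouse 1 but 23.7 and 19.0 CPM in P30 mice 2 and 3. The 9 cKO mice ranged from 0.493 to 4.50 CPM (median 1.74), so mouse 1 lay inside the cKO range and mice 2 and 3 far above it. *Lum*, lumican of the corneal and scleral stroma, did the same, with 0.284 CPM in mouse 1, 3.82 and 3.24 CPM in mice 2 and 3, and 0.0490 to 1.56 CPM (median 0.170) in cKO mice. The highest cKO value of *Lum* was that of P38 mouse 12. Log2 fold changes at P34 were -2.94 (SE 0.97, edgeR adjusted p = 0.308) for *Dcn* and -3.33 (SE 1.12, edgeR adjusted p = 0.318) for *Lum*, and neither passed the test at any age. The paper, by its own DESeq2 analysis, lists *Dcn* as lower at each cKO age. A figure legend there gives the P30 controls in duplicate, whereas its methods give triplicates. Leaving out a mouse moved the P34 value from -4.39 (without P34 mouse 9) to -2.42 (without P30 mouse 2) for *Dcn* and from -4.70 (without P34 mouse 9) to -2.79 (without P34 mouse 8) for *Lum*. At P38 *Lum* ran from -3.20 (without P38 mouse 12) to -1.36 (without P30 mouse 2).

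Contractile smooth muscle markers moved with these controls: their 7 genes summed to 171 and 189 CPM in P30 mice 2 and 3, to 26.8 CPM in P30 mouse 1 and to 9.80 to 47.8 CPM in cKO mice. Of the 5 tested, *Acta2*, *Myh11* and *Tagln* were called lower at P34, with 4 lower without adjustment and 4 by DESeq2. Over all genes tested, 0.66% were called lower at P34 and 5.42% were lower without adjustment, and DESeq2 called 369 in either direction. *Des*, desmin, did not follow the sum. Its levels in P30 mice 1, 2 and 3 were 0.615, 2.06 and 0.832 CPM, while P34 mouse 9 had 2.00 CPM. Of the 9 RPE markers, the pigment genes stood out in the same mice, with *Dct*, an enzyme of melanin synthesis, at 390 and 310 CPM in mice 2 and 3 and 61.7 CPM in mouse 1. The visual cycle gene *Rpe65* did not follow them, with 13.2, 5.59 and 21.5 CPM in mice 1, 2 and 3, and *Rgr*, *Lrat* and *Ttr* were likewise lowest in mouse 2 of the P30 mice. At P34, 1 of the 9 RPE markers was called lower, *Tyrp1*, with 4 lower without adjustment and 4 by DESeq2 and a median log2 fold change of -0.37. Log2 fold changes of the others ran from -4.21 for *Pmel* (SE 0.86, edgeR adjusted p = 0.0546) and -3.36 for *Dct* (SE 0.73, edgeR adjusted p = 0.0751) to 0.33 for *Rpe65* (SE 0.44, edgeR adjusted p = 0.849). Of fibroblast and scleral markers, *Col1a1* had 1.34, 4.20 and 4.55 CPM and *Col3a1* 2.38, 5.41 and 5.74 CPM in P30 mice 1, 2 and 3. *Col1a2* hardly differed among them (25.8, 26.3 and 26.4 CPM), and *Mfap4*, *Pdgfra* and *Fap* were not lowest in mouse 1. The part of any of these lists in the levels of *Dcn* and *Lum* was not tested.

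*Prelp*, a member that binds basement membranes and collagen, lies next to *Optc* on the chromosome. It had 47.4, 54.6 and 48.3 CPM in P30 mice 1, 2 and 3 and 33.8, 53.5 and 41.7 CPM in P32 mice 4, 5 and 6. P34 mice 7, 8 and 9 had 29.8, 29.6 and 34.3 CPM, and P38 mice 10, 11 and 12 had 36.7, 46.2 and 35.9 CPM. The P34 mice did not overlap with the P30 mice, but the log2 fold change of -0.68 (SE 0.16) did not pass the test (edgeR adjusted p = 0.114). DESeq2 gave an adjusted p of 0.00922 for the same comparison, and edgeR gave 0.0171 with only the 2 conditions in the fit, 0.0289 with no filter on low counts and 0.0369 without P32 mouse 4.

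*Aspn*, asporin, a relative of decorin that binds TGF-β, was the SLRP gene with the smallest change at P34. It had 1.73, 2.14 and 1.75 CPM in P30 mice 1, 2 and 3, and 1.84 to 2.37 CPM in P34 mice, with a log2 fold change of 0.13 (SE 0.20, edgeR adjusted p = 0.878). The P32 mice, at 1.16 to 1.34 CPM, lay below the P30 mice (log2 fold change -0.58, SE 0.20, edgeR adjusted p = 0.698), and P38 mice had 1.62 to 1.97 CPM. *Kera* was not tested. Its highest counts were 3 in mice 9 and 10 and 4 in mouse 12.

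**Figure D3:**
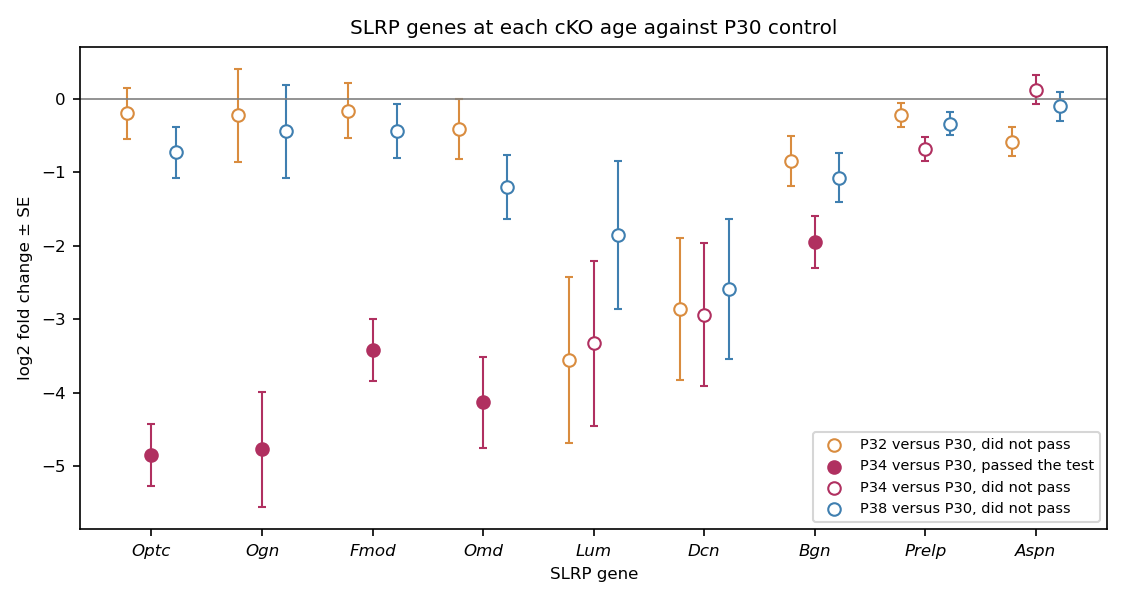
Fitted log2 fold change ± SE of the 9 tested SLRP genes at P32, P34 and P38, each against the same 3 P30 mice, with filled points for genes that passed the test. Only P34 has filled points (*Optc*, *Ogn*, *Fmod*, *Omd* and *Bgn*), and the fitted value of *Omd* depends on a prior count.

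At P32 and P38 no SLRP gene passed against P30. At P32, edgeR called 0 of 9 and DESeq2 called 0, while 4 were lower at an unadjusted p of at most 0.05 (*Dcn*, *Lum*, *Bgn* and *Aspn*), where 0% of all genes were called lower with adjustment and 1.77% without. At P38, edgeR and DESeq2 each called 0 and 3 were lower without adjustment (*Dcn*, *Bgn* and *Omd*), with 0% of all genes called lower with adjustment and 2.66% without. At P34, 8 of 9 were lower without adjustment, against 5.42% of all genes. The 3 comparisons share their P30 mice. Log2 fold changes of the 9 genes had a median of -0.41 (P32), -3.33 (P34) and -0.73 (P38), beside medians of -0.01, -0.00 and -0.01 over all genes tested. With *Omd* at its bound, the P34 median was -2.94. Genes not yet given at P32 had fitted log2 fold changes of -3.55 (*Lum*), -2.85 (*Dcn*), -0.85 (*Bgn*), -0.41 (*Omd*), -0.22 (*Ogn*), -0.22 (*Prelp*) and -0.16 (*Fmod*). At P38 these were -2.59 (*Dcn*), -1.86 (*Lum*), -1.20 (*Omd*), -1.07 (*Bgn*), -0.44 (*Ogn*), -0.44 (*Fmod*), -0.34 (*Prelp*) and -0.10 (*Aspn*). At P34, 6 of the 9 genes had every P34 mouse below every P30 mouse, as had 9.67% of all genes tested. These 6, the 8 lower without adjustment and the 3 at P38 include *Omd*, which could be tested only through its P30 and P32 counts.

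The cKO ages were also compared with each other. Between P32 and P34, *Optc* (log2 fold change -4.64, SE 0.42, adjusted p = 0.000818), *Ogn* (-4.55, SE 0.78, adjusted p = 0.0398) and *Fmod* (-3.25, SE 0.42, adjusted p = 0.00603) fell in the edgeR fit. *Omd* was at least 2.86-fold lower (edgeR adjusted p = 0.0414). These 4 of 9 stand beside 0.242% of all genes called lower with adjustment, and 5 were lower without adjustment beside 8.93% of all genes. *Omd* was tested here only through its P30 and P32 counts, and without it 3 of 8 were called. *Bgn* did not pass here (-1.10, SE 0.35, edgeR adjusted p = 0.102), nor did *Aspn* on the higher side (0.71, SE 0.20, edgeR adjusted p = 0.0949). DESeq2 called both, with adjusted p = 0.0253 for *Bgn* and 0.0400 for *Aspn*. *Prelp* (-0.46), *Dcn* (-0.08) and *Lum* (0.23) did not pass in either tool. Leaving out a mouse lost the call on *Ogn* in 9 of 12 fits (all but those without mouse 2, 6 or 12), on *Omd* in 11 (all but that without mouse 6) and on *Fmod* in 2 (without mouse 7 or 8), and on *Optc* in none. With only P32 and P34 mice in the fit, where *Omd* and *Lum* had too few counts to be tested, 1 gene, *Optc*, was called.

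From P34 to P38, *Optc* (log2 fold change 4.11, SE 0.41, edgeR adjusted p = 0.00146) and *Fmod* (2.98, SE 0.42, edgeR adjusted p = 0.0123) rose. They are 2 of 9, against 0.199% of all genes called higher, and 5 of 9 were higher without adjustment (*Optc*, *Fmod*, *Ogn*, *Omd* and *Bgn*), against 3.01%. *Ogn* had a log2 fold change of 4.33 (SE 0.78) that missed the threshold at an edgeR adjusted p of 0.0613, and DESeq2 gave 6.06e-06. Without P32 mouse 6 or P38 mouse 12 it passed (edgeR adjusted p down to 0.00217). *Fmod* lost its call without P34 mouse 7 or 8 or P38 mouse 10 or 11 (edgeR adjusted p up to 0.125). *Omd*, tested only through its P30 and P32 counts, was at least 1.59-fold higher at P38 and did not pass (edgeR adjusted p = 0.261). The fitted log2 fold changes of *Lum* (1.47), *Bgn* (0.87), *Dcn* (0.35), *Prelp* (0.34) and *Aspn* (-0.23) did not pass in edgeR. Between P32 and P38, edgeR and DESeq2 each called 0 SLRP genes and 0 were lower without adjustment, where 0% of all genes were called lower with adjustment and 6.23% without. Fitted log2 fold changes there ran from -0.79 (*Omd*) through -0.53 (*Optc*), -0.28 (*Fmod*), -0.22 (*Bgn*), -0.22 (*Ogn*), -0.12 (*Prelp*), 0.27 (*Dcn*) and 0.48 (*Aspn*) to 1.70 (*Lum*).

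Summed over the 10 genes, SLRP transcripts came to 212 to 249 CPM in P30 mice, and to 191, 250 and 102 CPM in P32 mice 4, 5 and 6. The sums were 42.9, 39.1 and 52.6 CPM in P34 mice 7, 8 and 9, and 154, 179 and 106 CPM in P38 mice 10, 11 and 12. *Prelp* made up most of what remained at P34.

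The SLRP genes lie in 3 clusters and a lone locus on chromosome X (GRCm38). On chromosome 1, *Optc* (133897199 to 133907999, minus strand) and *Prelp* (133910304 to 133921414, minus strand) are 2.30 kb apart, and *Fmod* (134037254 to 134048277, plus strand) follows after 116 kb with no protein-coding gene between. *Optc* and *Fmod* fell by 4.84 and 3.41 on the log2 scale at P34, and *Prelp* between them had -0.68, a difference between genes that was not tested. On chromosome 13, *Aspn* (49544443 to 49567565), *Omd* (49582462 to 49592822) and *Ogn* (49608046 to 49624501) follow each other on the plus strand with gaps of 14.9 and 15.2 kb. *Aspn* had a log2 fold change of 0.13, against the called falls of *Omd* and *Ogn*. On chromosome 10, *Dcn* (97479609 to 97518143) and *Lum* (97565128 to 97572703) are 47.0 kb apart on the plus strand, with *Kera* (97606879 to 97613692) beyond them. *Bgn* lies at 73483602 to 73495933 on the plus strand of chromosome X.

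*Cenpp*, on the opposite strand, overlaps *Aspn*, *Omd* and *Ogn* and had at most 72 counts in a library, so reads could be shared in part if strand was not used in counting. *Gm15851* overlaps *Optc* and *Prelp* on the opposite strand and had at most 2 counts.

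**Figure D4:**
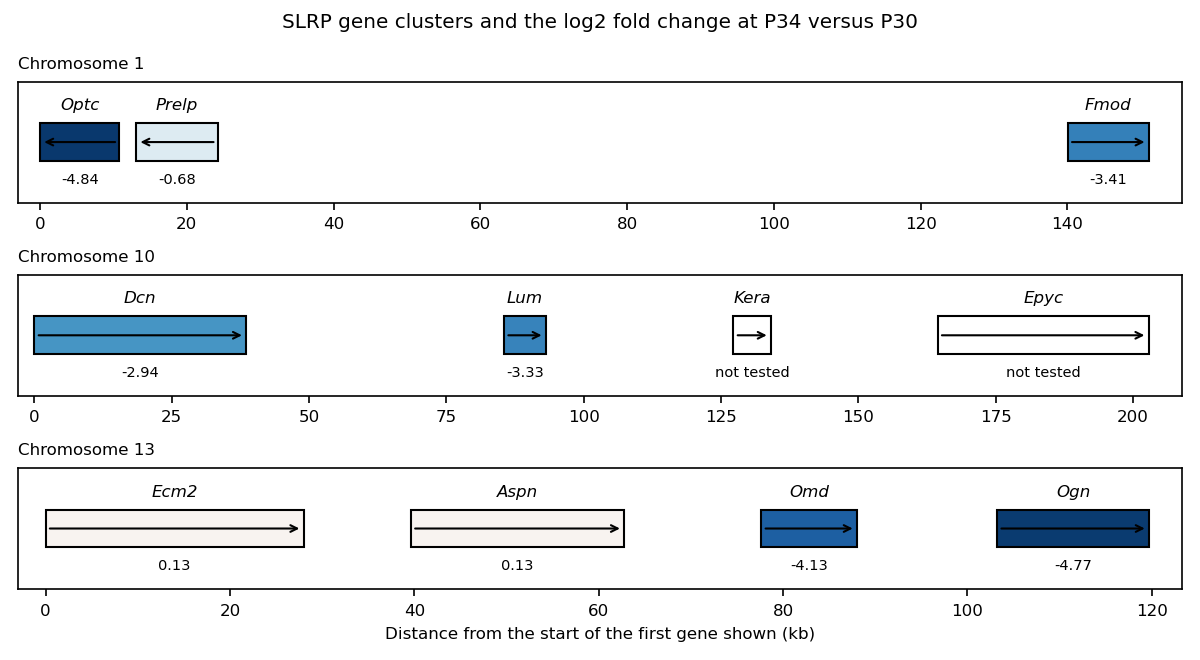
SLRP genes of the clusters on chromosomes 1, 10 and 13, drawn to scale in kb from the start of the first gene shown, with arrows for the strand and the fitted log2 fold change at P34 versus P30 under each gene (darker blue is lower). *Prelp* (-0.68) lies beside *Optc* (-4.84), and *Aspn* (0.13) beside *Omd* (fitted -4.13).

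Likeness between genes was measured as the root mean square difference of mean-centred log2 CPM over the 12 libraries, which is smaller for more alike patterns. *Dcn* and *Lum* were each other's nearest gene among all genes tested (0.546, with an own spread of 1.63 for *Dcn* and 1.73 for *Lum*). For *Optc* (own spread 2.01) the 3 nearest were *Fbln1* (0.206), *Mfap4* (0.293) and *Slc16a12* (0.405), and *Ogn* and *Fmod* ranked 12 and 13 (0.651 and 0.654). *Slc16a12* was also nearest to *Ogn* (0.438), before *Msx2* (0.583) and *Col4a6* (0.618). Nearest to *Fmod* were *Notum* (0.256), *Dio3* (0.300) and *Sod3* (0.344), and nearest to *Omd* were *Ism2* (0.349), *Rarres2* (0.360) and *Penk* (0.364).

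The remaining SLRP genes kept other company. *Bgn* was nearest to *Nkd2* (0.236), *Gm44250* (0.250) and *Gfpt2* (0.284), *Prelp* to *Loxl3* (0.119), *Gldc* (0.119) and *Gm26672* (0.133), and *Aspn* to *Ptprr* (0.149), *Angpt2* (0.168) and *Spata33* (0.171). After each other, *Dcn* was close to *Gli1* (0.829), and *Lum* to *Tpm2* (0.985) and *Dhx58os* (0.993). *Prelp* ranked 1037 from *Optc*, its neighbour on the chromosome, at 1.78. The values are descriptions over the same 12 libraries, which differ in depth and in lens RNA.

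Ciliary epithelium markers moved with *Optc*, *Ogn* and *Fmod*. The 6 markers summed to 41.8 to 52.9 CPM at P30, 21.05 to 45.5 CPM at P32, 9.63 to 14.4 CPM at P34 and 22.9 to 37.8 CPM at P38, with the lowest P32 value in mouse 6 and the lowest P38 value in mouse 12. At P34, 5 of the 6 were called lower (*Best2*, *Otx1*, *Wif1*, *Zic1* and *Zic2*), beside 0.66% of all genes tested. No marker was at 0 in all mice of a group. *Best2* and *Wif1* had no P34 library at the count needed for testing, so like *Omd* they were tested only through other ages. *Best2*, a bestrophin of the non-pigmented ciliary epithelium, had 6.73 to 9.66 CPM in P30 mice, 0.0677 to 0.249 CPM in P34 mice, 2.19 CPM in mouse 6 and 2.27 CPM in mouse 12. It fell most of the 6. DESeq2 gave log2 fold changes at P34 of -5.98 (*Best2*), -5.46 (*Wif1*), -3.53 (*Otx1*), -1.66 (*Wfdc1*), -1.60 (*Zic2*) and -1.36 (*Zic1*). The part of ciliary tissue in the SLRP levels was not tested.

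Fibroblast and scleral markers, 10 genes with no SLRP gene among them, summed to 96.1 to 108 CPM at P30, 50.8 to 101 CPM at P32, 29.4 to 50.8 CPM at P34 and 61.2 to 114 CPM at P38. *Col1a2*, *Mfap4* and *Pdgfra* made up most of the sum. In P34 mouse 9, *Col3a1* had 9.78 CPM and *Pi16* 2.51 CPM, above all P30 mice (up to 5.74 and 1.37 CPM). *Pi16* was highest in P38 mouse 12 (3.19 CPM) and P34 mouse 9. Of the cKO mice, *Lum* was highest in mouse 12 and *Dcn* in mouse 9. At P34, 2 of the 9 tested markers were called lower, *Col1a2* and *Mfap4*, with 3 lower without adjustment and 3 by DESeq2 and a median log2 fold change of -0.42. Among all genes, 0.66% were called lower and 5.42% were lower without adjustment. *Thbs2* missed the threshold (log2 fold change -2.12, SE 0.43, edgeR adjusted p = 0.0513), and the other 6 had log2 fold changes from -0.89 (*Col1a1*) to 0.21 (*Pi16*). Their part was not tested. Corneal epithelium markers, 5 genes, summed to 2.16 to 22.7 CPM at P30, 0.715 to 51.4 CPM at P32, 0.911 to 3.82 CPM at P34 and 4.04 to 32.6 CPM at P38, and edgeR called 0 of the 3 tested lower at P34, with 1 lower at an unadjusted p of at most 0.05 and 0 by DESeq2.

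Of 8 microglia and macrophage markers, 1 was called lower at P34, *Mrc1*, a mannose receptor of tissue macrophages, which had 0.915 ± 0.340 CPM at P30 and 0.133 ± 0.079 CPM at P34 (SD, n = 3, edgeR adjusted p = 0.0141). Without adjustment 2 were lower, and 2 by DESeq2. Of all genes, 0.66% were called lower with adjustment and 5.42% without. The sum of the 8 markers overlapped between these ages.

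The lens marker sum also moved with the P34 group. Of the 10 lens markers, edgeR called 0 lower at P34, with 10 lower without adjustment and 9 by DESeq2. In edgeR, 0.66% of all genes were called lower and 5.42% were lower without adjustment. P30 mouse 2 had a low sum too, 601 CPM, and 73.8 CPM of *Optc*, 28.9 CPM of *Fmod* and 15.8 CPM of *Ogn*. Among the 5 libraries with a lens sum under 1000 CPM, a set chosen after seeing the data, the 3 P34 mice differed from P30 mouse 2 by log2 fold changes of -4.60 for *Optc*, -3.87 for *Ogn*, -3.31 for *Fmod* and -2.12 for *Bgn*. From P32 mouse 6 they differed by -3.62 for *Optc*, -2.23 for *Fmod*, -1.91 for *Ogn*, -0.50 for *Bgn* and -0.42 for *Prelp*. On the higher side were *Aspn* (0.82), *Dcn* (1.96) and *Lum* (2.20). With 1 mouse at P30 and 1 at P32 these are values without a replicate check.

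**Figure D5:**
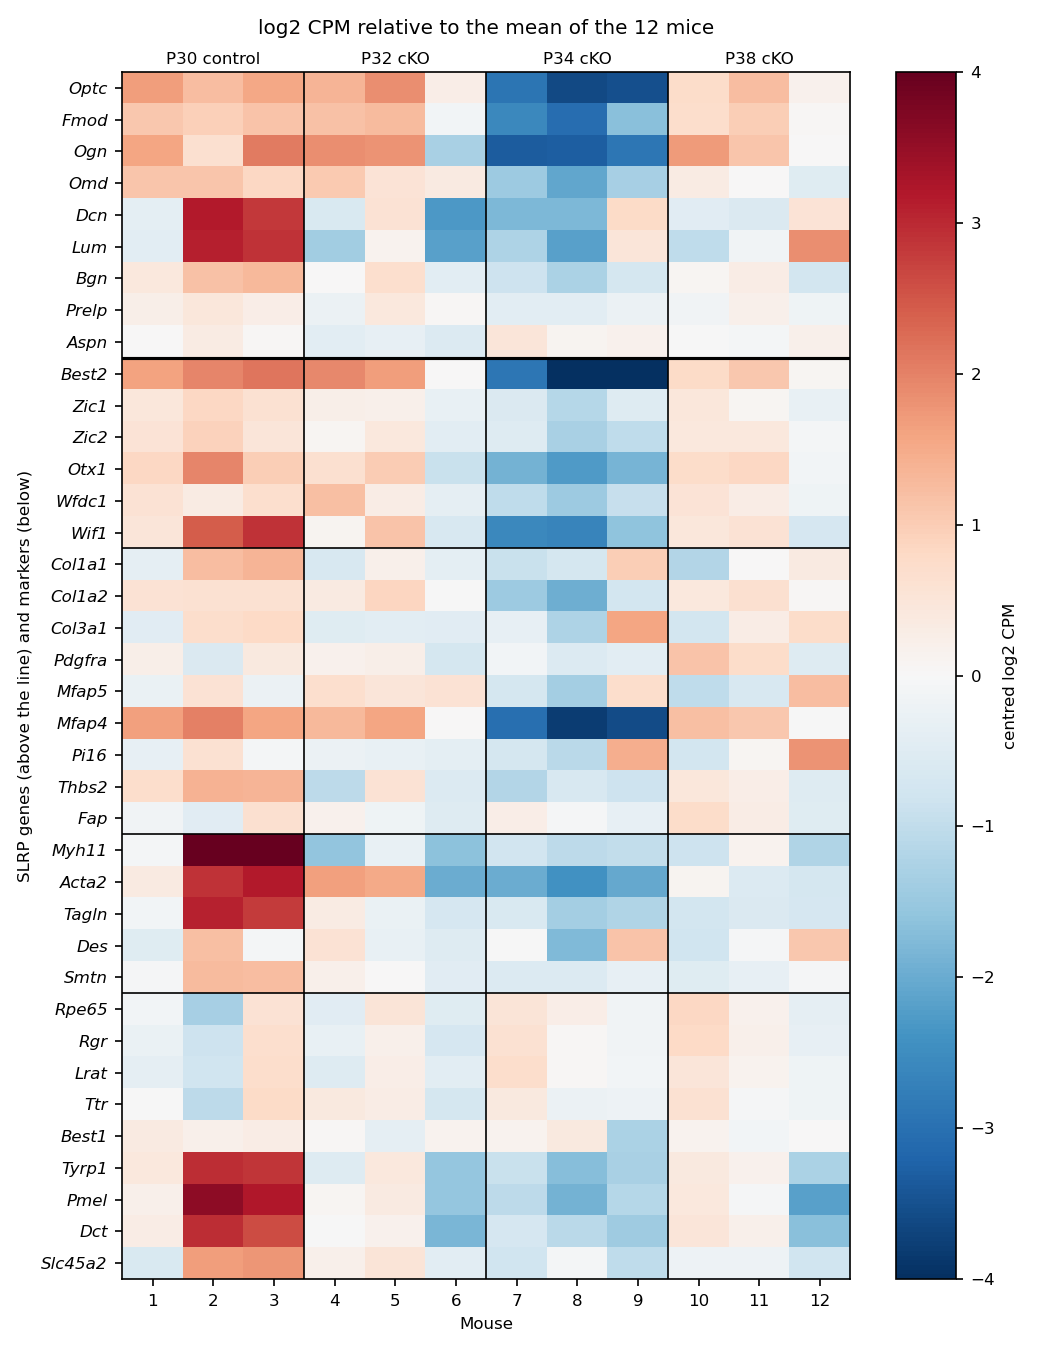
Centred log2 CPM (prior count 2, red above and blue below the mean of the 12 mice, colours capped at the ends of the scale) of the 9 tested SLRP genes above the thick line and, below it, of every tested marker of ciliary epithelium (6, from *Best2*), fibroblasts and sclera (9, from *Col1a1*), smooth muscle (5, from *Myh11*) and RPE (9, from *Rpe65*). *Optc*, *Fmod* and *Ogn* are lowest in mice 7 to 9, *Optc* and *Fmod* are near their mean in mice 6 and 12 like *Best2* and *Mfap4*, *Ogn* is below its mean in mouse 6 (-1.30), and *Dcn* and *Lum* are highest in mice 2 and 3 like *Myh11* and *Tyrp1* but unlike *Rpe65*.

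Other genes of SLRP biology were counted from lists by role. Their counts at P34 stand beside 0.66% of all genes called lower and 5.42% lower without adjustment. Of 8 further SLRP family genes, 6 were tested and edgeR called 0 at P34 (1 lower without adjustment, 0 by DESeq2). *Nyx*, nyctalopin of ON bipolar cells, had 18.6 ± 3.7 CPM at P30 and 19.6 ± 0.55 CPM at P34 (SD, n = 3). *Podn*, podocan, had 13.8 ± 8.3 CPM at P30 and 1.64 ± 0.18 CPM at P34 (log2 fold change -3.06, SE 0.92, edgeR adjusted p = 0.254), and it was also low in mice 2, 6 and 12 (4.68, 2.93 and 3.43 CPM).

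Of 14 collagens that SLRPs bind, 1 was called lower at P34 (6 without adjustment and 1 by DESeq2), beside 0.66% of all genes (5.42% without adjustment). *Col1a2*, a chain of collagen I, went from 26.1 ± 0.33 CPM at P30 to 7.04 ± 3.08 CPM at P34 (SD, n = 3, log2 fold change -1.90, SE 0.29, edgeR adjusted p = 0.0117) and back to 22.8 ± 4.6 CPM at P38. Its rise from P34 to P38 passed as well (log2 fold change 1.70, SE 0.29, edgeR adjusted p = 0.0450).

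Of 24 tested enzymes of chondroitin and dermatan sulfate chains, 2 were called lower at P34 (2 without adjustment and 2 by DESeq2), beside 0.66% of all genes (5.42% without adjustment). *Dse*, which epimerises chondroitin to dermatan sulfate, had a log2 fold change of -1.26 (SE 0.25, edgeR adjusted p = 0.0499), and *Papss2*, which makes the sulfate donor, -1.08 (SE 0.18, edgeR adjusted p = 0.0160). *Papss2* had 14.9 ± 4.2 CPM at P30 and 8.19 ± 0.19, 7.07 ± 0.45 and 8.38 ± 0.26 CPM at P32, P34 and P38 (SD, n = 3), and at P32 and P38 it did not pass in edgeR (adjusted p = 0.592 and 0.506) but did in DESeq2 (adjusted p = 0.00841 and 0.0121). Of 6 tested keratan sulfate enzymes, edgeR and DESeq2 called 0 at P34, with 1 lower without adjustment.

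Of 16 growth factors and receptors known to bind SLRPs, 2 were called lower at P34, the ligands *Bmp2* (log2 fold change -2.19, SE 0.37, edgeR adjusted p = 0.0184) and *Bmp4* (-2.07, SE 0.39, edgeR adjusted p = 0.0351). Without adjustment 5 were lower, and 3 by DESeq2, which also called *Tgfbr3* (log2 fold change -1.04, DESeq2 adjusted p = 0.00108). Of all genes, 0.66% were called lower in edgeR and 5.42% without adjustment. *Bmp2* had 5.97 ± 1.27 CPM at P30 and 1.30 ± 0.29 CPM at P34, and *Bmp4* 5.03 ± 0.79 and 1.19 ± 0.37 CPM (SD, n = 3). Of 8 tested proteases that cleave SLRPs, edgeR and DESeq2 called 0 at P34, with 3 lower without adjustment.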

How the data were processed

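RNA from whole retinas of 12 mice went into stranded mRNA libraries, one for each mouse. By the submitters' processing notes and the paper, single-end reads were aligned by STAR 2.5.3a to mm10, HTSeq 0.6.1p1 assigned them to genes, and the authors deposited these counts per gene, whole and not normalized. The strand option of the counting is not given in the sources used here. With 29701483 to 60145034 counts in a library, 3 counts equal 0.0473 to 0.102 CPM on the TMM scale, a floor for counting error only. No pair of libraries of a condition held the same counts (chi-square per degree of freedom of 19.7 to 254).

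Genes were named from GENCODE M21 (54079 of 54146). All 12 mice entered 1 edgeR 4.0.16 quasi-likelihood fit (R 4.3.3, TMM, edgeR's filter on low counts, 1 mean per condition), with Benjamini-Hochberg adjustment over 18628 genes. The SE is the log2 fold change divided by the square root of F. DESeq2 1.42.0, other scalings and filters, a robust fit, a sex covariate, fits of 2 conditions, other thresholds, other gene lengths and leaving out each mouse were alternatives. The fit of 5 libraries low in lens RNA, with 1 mouse each at P30 and P32, was added after seeing the data. The procedure was tested on simulated counts. The 9 tested SLRP genes are named in each comparison, with list genes that passed against P30, a few others for their level, and the 3 genes most like each tested member, except 1 gene and 1 photoreceptor marker, which are not reported here and, for the marker, not summed. The members and lists were chosen with earlier results of these data known.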

Additional observations from a re-analysis of the deposited data

Results flagged for a closer look

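The change from control differed between cKO ages for 4 SLRP genes, by the edgeR contrast of the ages in the same fit. From P32 to P34 the log2 fold change was -4.64 for *Optc*, -4.55 for *Ogn* and -3.25 for *Fmod*, and the fitted value was -3.72 for *Omd*, which had at most 1 count in a P34 library. From P34 to P38 it was 4.11 for *Optc* and 2.98 for *Fmod*. No test for an outlying value within a group was run on groups of 3 mice. With a mouse left out, fitted values from P32 to P34 ran from -4.97 to -4.26 (*Optc*), -5.05 to -4.19 (*Ogn*), -3.74 to -2.98 (*Fmod*) and -4.18 to -3.11 (*Omd*). From P34 to P38 they ran from 3.82 to 4.38 (*Optc*) and 2.70 to 3.46 (*Fmod*).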

How the results depend on the processing

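No paired analysis was possible because the replicate numbers 1 to 12 are unique to each mouse. Of 864 alternative values for 45 log2 fold changes of SLRP genes, 788 kept direction and call, 47 lost the call (38 of them with a mouse left out and 4 in the libraries low in lens RNA), 12 gained it and 17 changed sign, none of which was called. With the longest transcript in place of all exons as length, the P30 level was 3.10 in place of 1.36 CPM per kb for *Bgn* and 46.6 in place of 34.1 for *Optc*. DESeq2 gave no adjusted p for *Omd* between P32 and P34.

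At P34 versus P30, 2 to 6 SLRP genes were called when mice were left out one at a time, 2 without mouse 7 or 8, and 4 to 6 under other settings, and 8 at an unadjusted p of at most 0.05. At P34 versus P32, 1 to 5 were called with a mouse left out (1 without mouse 7 or 8), 1 with only the 2 conditions fitted and 1 in the 5 libraries low in lens RNA, where P30 and P32 had 1 mouse each and the spread came from the P34 mice alone, so that its counts cannot be compared with those of 12 mice. At P38 versus P34, 1 to 3 were called with a mouse left out (1 without mouse 7, 8, 10 or 11) and 5 without adjustment. At P32 and P38 versus P30, 4 and 3 appeared without adjustment only.

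With a mouse left out, the log2 fold change at P32 ran from -0.39 to 0.17 for *Fmod*, from -0.58 to 0.13 for *Optc* and from -0.58 to 0.28 for *Ogn*. At the same age it ran from -4.83 to -3.06 for *Lum* and from -3.77 to -2.34 for *Dcn*. For *Aspn* it ran from -0.00253 to 0.23 at P34 and from -0.19 to 0.00517 at P38. Between P32 and P34 it ran from -1.53 to 0.83 for *Dcn* and from -1.14 to 1.51 for *Lum*. Between P34 and P38 it ran from -0.10 to 1.79 for *Dcn* and from 0.13 to 2.84 for *Lum*. In the libraries low in lens RNA, *Aspn* at P34 had -0.073 and *Dcn* between P32 and P34 had 1.96.

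Calls over all genes varied more. At P34 versus P30 there were 123, against 369 by DESeq2, 298 with no filter, 229 with only the 2 conditions and 43 to 213 with a mouse left out. At P34 versus P32 there were 45, against 1406 by DESeq2, 656 with no filter, 92 with sex as a covariate, 1037 at an adjusted p of at most 0.1, 11 with only the 2 conditions, 11 in the libraries low in lens RNA and 14 to 2726 with a mouse left out. At P38 versus P34 there were 37, against 144 by DESeq2, 115 with no filter, 71 with only the 2 conditions and 8 to 58 with a mouse left out. The causes were not tested. At P32 and P38 versus P30 edgeR called 0, DESeq2 25 and 45, and edgeR with no filter 23 and 18. At P38 versus P32 edgeR called 0, against 932 by DESeq2, 201 with no filter and up to 1946 with a mouse left out. The highest counts with a mouse left out, 2726 and 1946, came without P32 mouse 6.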
